A study of Mus musculus with 53 samples.

Results

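The 5 genes described here are the mouse receptors for the constant part of IgG, Fcgr1, Fcgr2b, Fcgr3 and Fcgr4, and Fcer1g, the signalling chain that the activating receptors share. They were taken by gene symbol from tables of 23847 loci, and each symbol matched 1 locus. The samples were bone marrow-derived macrophages (BMDMs) of WT and Stat6-/- mice (Stat6KO in the labels, a full body knockout on the C57BL/6 background) aged 8 to 12 weeks. All cells, controls included, had first been grown into macrophages over 6 days with L929 supernatant (MCSF in the labels). They were then given IL-4 at 20 ng/ml for 1, 3, 6 or 24 h, or left untreated for the same time, and an untreated 0 h group was taken at the start. The 53 samples form 18 groups, with 4 samples in each WT group, 3 in the WT 24 h IL-4 group and 2 in each Stat6-/- group. The comparison asked how IL-4 changes the receptor transcripts over time, whether it does so without STAT6, and how the activating receptors move against the inhibitory one.

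Fc gamma receptors let macrophages bind antibody-coated particles and immune complexes. Fcgr1 (the high affinity receptor), Fcgr3 and Fcgr4 are activating: they pair with the FcR gamma chain, product of Fcer1g, whose ITAM motif recruits the kinase Syk after phosphorylation by Src family kinases. Fcgr2b is the only inhibitory member, and the ITIM motif in its tail recruits the inositol phosphatase encoded by Inpp5d. Fcgr1 and Fcgr4 are also known as genes that interferon induces.

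In the mm10 tables, Fcgr2b (chr1:170960559-170976071), Fcgr4 (chr1:171018926-171029761), Fcgr3 (chr1:171051169-171059403) and Fcer1g (chr1:171229572-171234349) stood on a stretch of 274.0 kb, and Fcgr1 (chr3:96282909-96293969) stood apart. GENCODE vM21 lists all of them as protein-coding genes, Fcgr4 on the plus strand and the others on the minus strand. Fcgr2b and Fcgr3 have similar sequences: 9.58% of the 50-base words in the GENCODE transcripts of Fcgr3 also stand in Fcgr2b, and 2.54% of the 100-base words. Fcgr2b shared 4.38% of its 50-base words with Fcgr3 and other genes, and Fcgr1, Fcgr4 and Fcer1g shared 0 words of 50 bases with any other gene. Reads from the common part of Fcgr2b and Fcgr3 could be divided between them in the FPKM estimates, and GENCODE also places an antisense gene, Gm38204, over Fcgr2b, which counting without strand cannot tell apart from it.

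The 120 bases before the RefSeq start are shown for the 3 activating receptors because they differ in the words that STAT and interferon-activated factors are known to bind (RefSeq sequences of GRCm38.p6, 5′ to 3′ on the strand of the gene, with matches in capitals).
Fcgr1, chr3:96293970-96294089, minus strand: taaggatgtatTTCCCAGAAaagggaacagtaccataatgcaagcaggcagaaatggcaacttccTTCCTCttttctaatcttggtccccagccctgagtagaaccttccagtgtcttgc
Fcgr4, chr1:171018806-171018925, plus strand: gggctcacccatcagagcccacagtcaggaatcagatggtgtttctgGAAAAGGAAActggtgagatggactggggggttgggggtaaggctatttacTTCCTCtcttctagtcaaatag
Fcgr3, chr1:171059404-171059523, minus strand: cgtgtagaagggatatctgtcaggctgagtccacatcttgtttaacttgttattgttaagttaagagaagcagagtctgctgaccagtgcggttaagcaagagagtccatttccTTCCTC
The search covered both strands for 4 words, chosen after the sequences had been seen: the STAT palindromes TTCNNNGAA and TTCNNNNGAA, the interferon response core GAAANNGAAA, and GAGGAA, which ETS factors such as PU.1 bind. TTCNNNGAA stood only in the Fcgr1 window, from base -109 to -101, and 3.15% of 32851 promoter windows of this length hold it. GAAANNGAAA stood only in the Fcgr4 window, from base -73 to -64, against 1.22% of all windows. GAGGAA stood, as its complement TTCCTC, in the windows of Fcgr1, Fcgr3 and Fcgr4, against 11.6% of all windows. TTCNNNNGAA, the spacing that STAT6 prefers, was in 2.45% of all windows and in 0 of the members' windows, and none of the 4 words was in the windows of Fcgr2b or Fcer1g. The Fcgr2b window overlaps 7 GENCODE exons, of other Fcgr2b transcripts and of Gm38204. The Fcgr4 and Fcer1g windows each overlap 1 exon of their own gene. Fcgr3 has another RefSeq start at 171059394. GENCODE places the upstream end of Fcgr3 at 171064935, outside the window shown. The matches do not overlap each other, and a match is a description of the letters in this window.

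Across the libraries, FPKM summed to between 385889 and 464915, and 10017 to 10380 loci reached 1 FPKM. Stat6 stood between 58.7 and 90.6 FPKM in the 35 WT samples and between 14.3 and 24.0 FPKM in the 18 Stat6-/- samples. The 6 macrophage markers, Fcgr1 among them, summed to 2604 to 4469 FPKM. Lists of B cell, T and NK cell, mast cell, dendritic cell, fibroblast and erythroid markers summed to at most 14.0 FPKM in any sample, while the 7 neutrophil genes in the tables summed to 226 to 631 FPKM in WT and 597 to 1088 FPKM in Stat6-/- samples. The pair of Stat6-/- replicates stood apart from each other in the receptors: in all 9 Stat6-/- groups, replicate 2 lay above replicate 1, by 3.52 to 5.18 times for Fcgr1 and 4.34 to 7.74 times for Fcgr4. Because this distance widens the error of every fit that includes both genotypes, values fitted on the WT samples alone are given where they change a call made on all 53 samples.

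FPKM is scaled by transcript length, so levels of different genes can be set side by side. In untreated WT BMDMs at 0 h, Fcer1g was the most abundant member at 1656 ± 414 FPKM (SD, n = 4). Fcgr3 followed at 445 ± 91.9 FPKM, then Fcgr1 at 184 ± 43.4 FPKM, Fcgr4 at 103 ± 16.4 FPKM and Fcgr2b at 60.5 ± 15.9 FPKM. Among the receptors the 4 samples of neighbouring genes in this order did not overlap. The 18 groups ordered differently for each gene. Fcgr1 ran from 21.7 FPKM in WT at 24 h of IL-4 to 335 FPKM in Stat6-/- at 3 h of IL-4, a 15.4-fold span, and Fcgr2b from 54.7 FPKM in the WT 6 h control to 584 FPKM in WT at 3 h of IL-4, a 10.7-fold span. Fcgr4 spanned 6.31-fold, Fcgr3 2.02-fold and Fcer1g 1.76-fold. Most neighbouring groups in these orders overlapped: of 17 neighbouring pairs, 17 overlapped for Fcgr3, 16 each for Fcgr1, Fcgr4 and Fcer1g, and 15 for Fcgr2b. For Fcgr1, Fcgr4 and Fcer1g the gap stood directly above the WT 24 h IL-4 group, the lowest of the 18. For Fcgr2b the gaps separated WT at 24 h of IL-4 from WT at 1 h, and WT at 1 h from WT at 6 and 3 h of IL-4.

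**Figure D1:**
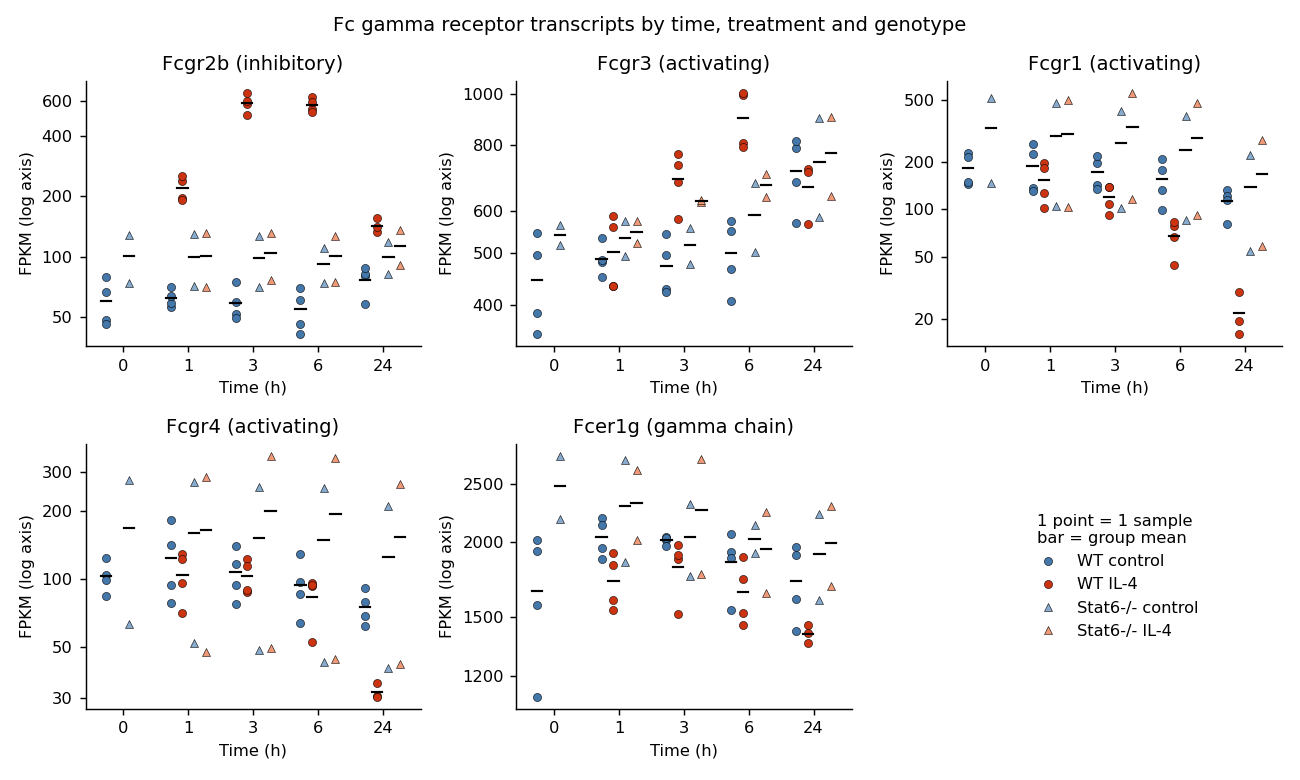
FPKM of each member on a log axis (1 point per sample, bar at the group mean) against time, for control and IL-4 samples of WT and Stat6-/- BMDMs. The WT IL-4 samples of Fcgr2b stand above all other samples at 1, 3 and 6 h, the WT 24 h IL-4 samples are the lowest of Fcgr1 and Fcgr4, and the Stat6-/- replicates lie far apart in Fcgr1 and Fcgr4.

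IL-4 raised the inhibitory receptor Fcgr2b in WT BMDMs at every time, most at 3 and 6 h. At 1 h the IL-4 samples stood at 197, 191, 238 and 252 FPKM and their controls at 56.3, 59.1, 63.5 and 71.0 FPKM. At 3 h they stood at 575, 508, 599.6 and 653 FPKM against 52.0, 49.8, 59.7 and 75.0 FPKM, and at 6 h at 546, 526, 626 and 590.2 FPKM against 46.3, 41.3, 61.1 and 70.2 FPKM. The groups did not overlap at any of these times. At 24 h the 3 IL-4 samples had come down to 133, 141 and 156 FPKM and still lay above the controls at 80.1, 58.5, 82.1 and 87.6 FPKM. On the log2(FPKM + 1) scale, the changes over the 4 times in order were 1.79, 3.30 and 3.39, each ± 0.23 (SE), then 0.90 ± 0.25, and limma gave adjusted p of 1.27e-07, 6.85e-15, 2.39e-15 and 0.00258. These are 3.46, 9.82, 10.5 and 1.86 times the control. With Tukey adjustment over the group pairs, the 24 h change missed the threshold (adjusted p = 0.0596). In bulk RNA, a change in the share of cells that express a gene and a change in RNA per cell cannot be told apart.

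Fcgr3, the most abundant receptor, rose in WT at 3 and 6 h, by less than 2-fold. At 6 h the IL-4 samples stood at 809, 793, 997 and 1004 FPKM and the controls at 407, 467, 551 and 575 FPKM, without overlap. At 3 h the IL-4 samples stood at 682, 581, 733 and 770 FPKM against 429, 423, 496 and 544 FPKM, also without overlap. The log2 change was 0.55 ± 0.15 at 3 h (adjusted p = 0.00472) and 0.85 ± 0.15 at 6 h (adjusted p = 1.5e-05), or 1.46 and 1.81 times the control, and the 3 h change missed the threshold with Tukey adjustment (adjusted p = 0.0535). At 1 h (0.03 ± 0.15, adjusted p = 0.952) and at 24 h (-0.09 ± 0.16, adjusted p = 0.658) the groups overlapped. Fcgr3 thus passed the test only at the times when Fcgr2b, with which it shares part of its sequence, was at its highest. How many of its reads came from the shared part was not tested.

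Fcgr1 fell in WT at 24 h of IL-4. The 3 IL-4 samples stood at 29.8, 19.3 and 15.99 FPKM and the controls at 133, 121, 114 and 81.2 FPKM, so that every IL-4 sample lay below every control. The log2 change was -2.34 ± 0.62 (adjusted p = 0.00178), a 5.07-fold lower level, which missed the threshold with Tukey adjustment (adjusted p = 0.0721). Each IL-4 sample stood at 0.246, 0.169 and 0.197 times the control of its own replicate number, in that order. At 6 h the IL-4 samples, at 78.2, 82.9, 66.8 and 43.9 FPKM, already lay below all controls, at 178, 211, 133 and 99.1 FPKM. The 6 h change of -1.16 ± 0.58 missed the threshold in the fit of all samples (adjusted p = 0.105) and passed it in the fit of the WT samples alone (adjusted p = 0.00056) as well as in a fit that blocks on replicate number (adjusted p = 1.85e-12). At 3 h the groups overlapped at 139, 139.8, 92.4 and 108 FPKM against 197, 219, 143 and 135 FPKM, while each IL-4 sample was lower than its same-numbered control, at 0.639 to 0.802 times its level. The 3 h change of -0.52 ± 0.58 had an adjusted p of 0.581 over all samples and 0.135 in WT alone, and 3.98e-05 with the replicate block. At 1 h the change was -0.29 ± 0.58 (adjusted p = 0.865).

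Fcgr4 kept overlapping levels in WT until 6 h and was lower at 24 h. At 24 h the IL-4 samples stood at 30.4, 34.9 and 30.3 FPKM and the controls at 91.7, 69.1, 79.6 and 62.0 FPKM, without overlap. The change of -1.21 ± 0.70, a 2.31-fold lower level, did not pass in the fit of all samples (adjusted p = 0.145) and passed in the WT samples alone (adjusted p = 0.000188). At 1, 3 and 6 h the log2 differences were -0.21, -0.03 and -0.16, each with an SE of 0.65 and adjusted p from 0.867 to 0.985.

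Fcer1g, the chain that the activating receptors need, did not pass the test at any time in the fit of all samples. Its WT IL-4 samples ranged from 1359 to 1979 FPKM and its timed WT controls from 1422 to 2195 FPKM. The log2 differences were -0.25, -0.15, -0.17 and -0.28 at 1, 3, 6 and 24 h (SE 0.16 to 0.18, adjusted p 0.183 to 0.567). Their 95% intervals together covered -0.64 to 0.18. The 24 h difference passed in 2 of 19 alternatives, among them the replicate block (-0.31 ± 0.13, adjusted p = 0.0373).

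In the fit of all samples, 1 member passed at 1 h and 2 members at each later time, against 9.39%, 28.9%, 41.2% and 55.0% of the 11146 loci tested. Counting only changes of at least 2-fold that passed, the number was 1 of 5 members at each time: Fcgr2b at 1, 3 and 6 h and Fcgr1 at 24 h. The share of all loci was 1.49%, 3.88%, 5.54% and 8.5%. In the WT samples alone, 1, 2, 3 and 3 members passed, against 13.5%, 37.0%, 50.5% and 62.5% of loci. With the replicate block, 3 members passed at 3 h and 3 at 6 h, against 41.1% and 55.2% of loci. From 3 h on, the number of members that passed was therefore not far from what these shares give for any 5 loci, and the members differed from each other in direction and size.

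**Figure D2:**
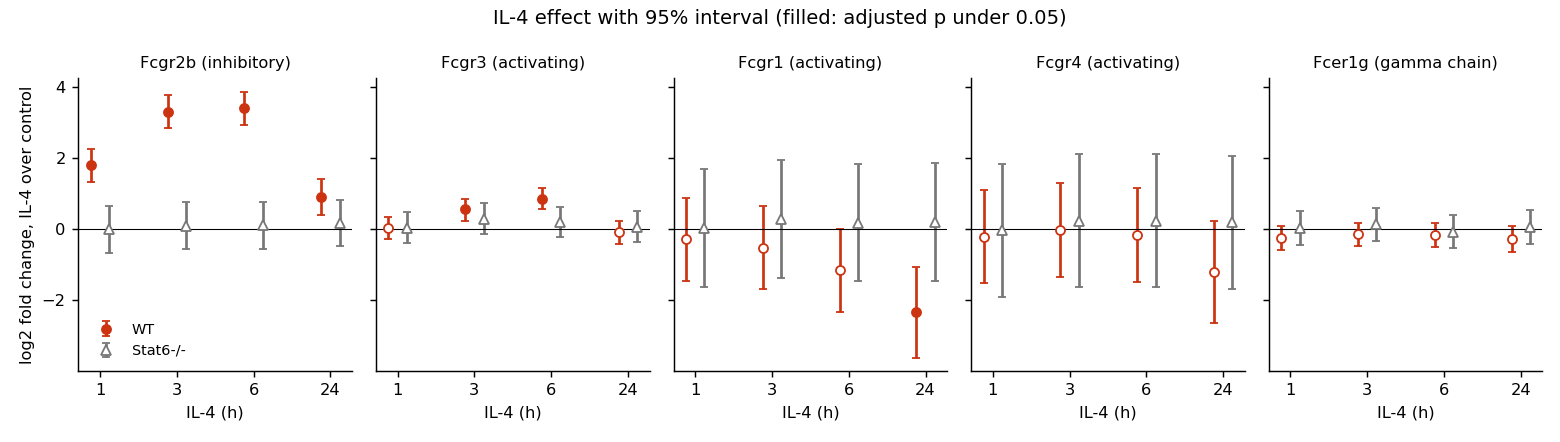
log2 fold change of each member, IL-4 over the control of the same time, with its 95% interval, in WT (circles) and Stat6-/- BMDMs (triangles); filled symbols have an adjusted p under 0.05 in the fit of all 53 samples. Fcgr2b rises to 3.39 at 6 h and Fcgr1 falls to -2.34 at 24 h in WT, and all Stat6-/- symbols are open, between -0.07 and 0.28.

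The balance of the receptors was described as the inhibitory share, the FPKM of Fcgr2b as a percentage of the summed FPKM of the 4 receptors. It is a ratio of transcript levels, not of receptors at the cell surface. In WT controls the share lay between 4.87% and 9.26% at all times. It stood at 20.5%, 20.5%, 23.3% and 24.9% in the IL-4 samples at 1 h, at 37.9%, 37.8%, 39.6% and 40.3% at 3 h, and at 35.8%, 35.1%, 35.1% and 34.9% at 6 h. At 24 h it was 17.5%, 15.3% and 17.0%. No IL-4 sample of WT overlapped a control. The difference between the means was 14.9, 31.6, 28.4 and 8.8 percentage points at 1, 3, 6 and 24 h.

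Expressed against Fcgr3 alone, the most abundant activating receptor, the WT controls held 6.84 to 11.3 Fcgr3 FPKM for each Fcgr2b FPKM. This ratio was 2.29 ± 0.07 at 1 h of IL-4, 1.18 ± 0.03 at 3 h and 1.57 ± 0.10 at 6 h (SD, n = 4), and 4.67 ± 0.44 at 24 h (n = 3). The 3 activating receptors took different parts in the change. Fcgr1 made up 23.5 ± 6.98% of the receptor FPKM at 0 h. At 6 h it held 4.25 ± 1.34% with IL-4, against 19.4 ± 6.25% in the control. At 24 h it held 2.59 ± 1.16% with IL-4, against 11.7 ± 3.11% in the control. A share also falls when the sum of the receptors rises. At 6 h the share of Fcgr4 was 5.23 ± 1.48% with IL-4 against 11.7 ± 3.25% in the control, though its FPKM overlapped. Fcgr4 made up 3.70 ± 0.36% at 24 h of IL-4 against 7.78 ± 1.44% in the control. Fcgr3 held 77.1 ± 2.19% at 24 h of IL-4 against 72.7 ± 4.15% in the control. The summed FPKM of the 4 receptors was 1344 to 1622 at 3 h and 1498 to 1783 at 6 h of IL-4, above the 729 to 1067 of all WT controls. At 24 h of IL-4 it was 760.4 to 918, within the range of the controls.

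**Figure D3:**
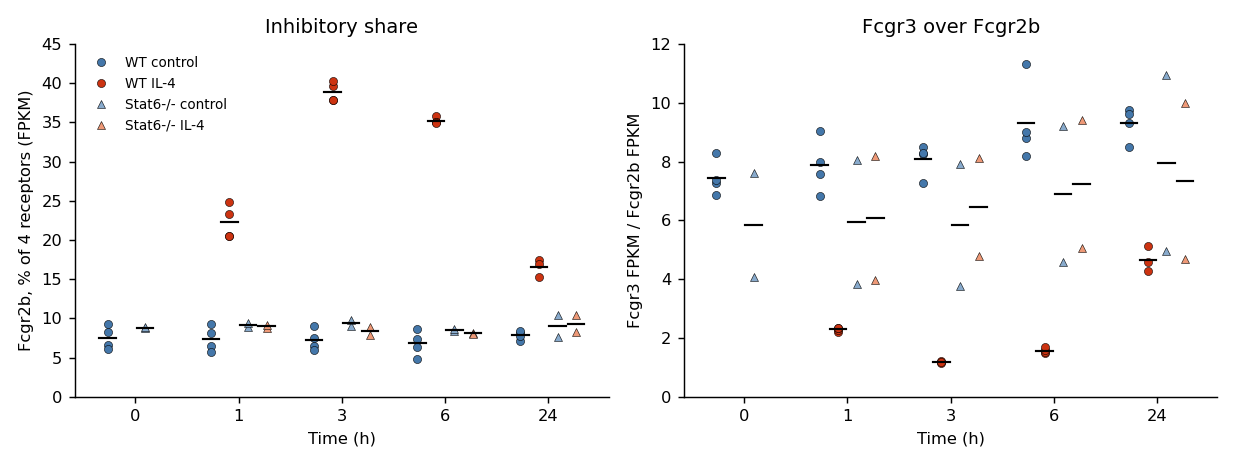
Left, Fcgr2b as a percentage of the summed FPKM of the 4 receptors; right, Fcgr3 FPKM divided by Fcgr2b FPKM, by time (1 point per sample, bar at the group mean). WT IL-4 samples reach 40.3% and a ratio of 1.14 at 3 h, and the Stat6-/- samples stay between 7.64% and 10.4% on the left.

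In Stat6-/- BMDMs, no member passed the test at any time of IL-4, and limma called 0.0% of all loci (0 loci, with 51, 131, 88 and 37 at an unadjusted p under 0.05 at 1, 3, 6 and 24 h). Fcgr2b of replicate 1 stood at 70.4, 77.1, 75.1 and 90.7 FPKM after 1, 3, 6 and 24 h of IL-4 and at 71.5, 70.8, 73.7 and 82.4 FPKM in the controls. In replicate 2 it stood at 132, 132, 127 and 137 FPKM against 129, 127, 110.2 and 118 FPKM. The largest same-numbered ratio was 1.16, at 24 h, where the WT ratios were 1.71 to 2.27. At 6 h it was at most 1.15, against 8.41 to 12.7 in WT. The log2 differences were between 0.00 and 0.17, and their 95% intervals together covered -0.66 to 0.83, so that a small change could not be seen with 2 samples a group. The inhibitory share of the Stat6-/- samples stayed between 7.64% and 10.4% with and without IL-4.

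Fcgr1, which fell in WT, stood in Stat6-/- at 58.2 and 276 FPKM after 24 h of IL-4 and at 54.0 and 223 FPKM in the controls. Over the 4 times its same-numbered ratios were 0.998 to 1.29, and those of Fcgr4 0.91 to 1.37. Fcgr3 was higher with IL-4 in both samples at 3 h, at 625 and 632 FPKM against 559 and 477 FPKM, a log2 difference of 0.28 ± 0.21 that did not pass (adjusted p = 1.0). The values of Fcer1g were 0.86 to 1.19 times the same-numbered control.

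The difference between the genotypes in the IL-4 effect was tested as an interaction. Fcgr2b passed at 1 h (1.79 ± 0.40 on the log2 scale, adjusted p = 0.00358), 3 h (3.21 ± 0.40, adjusted p = 8.38e-08) and 6 h (3.28 ± 0.40, adjusted p = 4.29e-08), and missed the threshold at 24 h (0.72 ± 0.41, adjusted p = 0.192). The 1 h call ended without the Stat6-/- 1 h IL-4 sample of replicate 1 (adjusted p = 0.121) or the 1 h control of replicate 2 (adjusted p = 0.101). Fcgr2b was the only member that passed in the fit of all samples, against 3.36%, 11.2%, 16.5% and 27.0% of loci at 1, 3, 6 and 24 h. For Fcgr1 at 24 h the difference was -2.55 ± 1.03 (adjusted p = 0.0607). It passed without all samples of Stat6-/- replicate 1 (adjusted p = 0.00158) and without those of replicate 2 (adjusted p = 0.00283), but in only 5 of 23 alternatives, and with samples left out it ranged from -3.66 to -1.44 with adjusted p up to 0.453. For Fcgr4 at 24 h it was -1.39 ± 1.16 (adjusted p = 0.392), and for Fcgr3 at 6 h 0.65 ± 0.26 (adjusted p = 0.0883). With the replicate block the difference passed also for Fcgr1 at 3 h (adjusted p = 0.000482) and 6 h (adjusted p = 7.57e-08) and for Fcgr3 at 6 h (adjusted p = 0.000894). This block also removes differences between the Stat6-/- replicate numbers, which were not taken as pairs. With it the SE for Fcgr1 at 6 h was 0.17 in place of 1.0. The share of all loci passing this test with the block was not computed. The genotypes came from different mice, so genotype and any difference between the mice or cultures cannot be told apart.

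Untreated Stat6-/- and WT BMDMs were compared at 0 h and over all control samples. At 0 h, 0 members passed in limma (2 at an unadjusted p under 0.05, Fcgr2b and Fcer1g), against 2.18% of loci. Over all controls 1 member passed, against 21.4% of loci: Fcgr2b was higher in Stat6-/- by 0.63 ± 0.13 (adjusted p = 0.000301), 1.54 times the WT level. This fit counted the control samples of all times as independent, while they repeat the same replicate numbers, only 2 of them in Stat6-/-. If a replicate number marks 1 mouse, the SE and p do not measure the spread between mice. Without Stat6-/- replicate 2, which leaves 1 Stat6-/- sample a group, the Fcgr2b difference was 0.27. Fcgr1 and Fcgr4 did not pass over all controls (0.30 ± 0.32 and 0.20 ± 0.36), and their direction depended on the replicate. Without replicate 1 they were higher in Stat6-/- by 1.33 and 1.37, and without replicate 2 they differed by -0.73 and -0.97.

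The distance between the Stat6-/- replicates was not the same for all members. Replicate 2 stood above replicate 1 in all 9 groups for Fcgr1 (median 4.64 times), Fcgr4 (5.90 times), Fcgr2b (1.71 times) and Fcer1g (1.36 times), and in only 1 of 9 groups for Fcgr3 (0.86 times). A list of 16 interferon-induced genes, such as Irf7, Ifit1 and Cxcl10, moved with Fcgr1 and Fcgr4: its summed FPKM was 287 to 765 in Stat6-/- replicate 1 and 946 to 3431 in replicate 2, which was 3.29 to 6.23 times as high in each group. In WT at 24 h the sum was 208 to 253 FPKM with IL-4 and 496 to 667 FPKM in the controls. Of the 16 genes, 0 rose and 10 fell in WT at 24 h, with a median log2 change of -1.13 against -0.07 over all loci tested, of which 55.0% passed, and 9 of these fell at least 2-fold (Irf7, Ifit1, Ifit2, Ifit3, Gbp3, Gbp5, Cxcl10 and Igtp among them). At 1, 3 and 6 h, 1, 2 and 1 of the 16 genes rose and 0, 1 and 3 fell. Over all loci 9.39%, 28.9% and 41.2% passed at these times. The list had median log2 changes of -0.02, 0.04 and -0.16, against -0.02, 0.01 and -0.00 over all loci. Irf1, an interferon-induced transcription factor, rose by 1.17 at 6 h. At 24 h other lists were lower with IL-4 as well: the neutrophil genes summed to 226 to 328 FPKM against 454 to 631 FPKM. The macrophage markers summed to 2604 to 2626 FPKM against 3274 to 3773 FPKM. That sum includes Fcgr1 itself, with a mean of 21.7 FPKM against 112 FPKM, so it is not separate from the fall of Fcgr1. The part of these lists, or of interferon, in the levels of Fcgr1 and Fcgr4 was not tested. At 6 h of IL-4 in WT the list summed to 652 to 1031 FPKM against 620 to 1190 FPKM in the controls, and its members differed: Irf7 stood at 397 ± 134 against 323 ± 161 FPKM, while Ifit3 fell from 120.2 ± 36.0 to 21.4 ± 7.14 FPKM and Ifit1 from 29.5 ± 6.68 to 8.57 ± 3.33 FPKM (SD, n = 4).

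**Figure D4:**
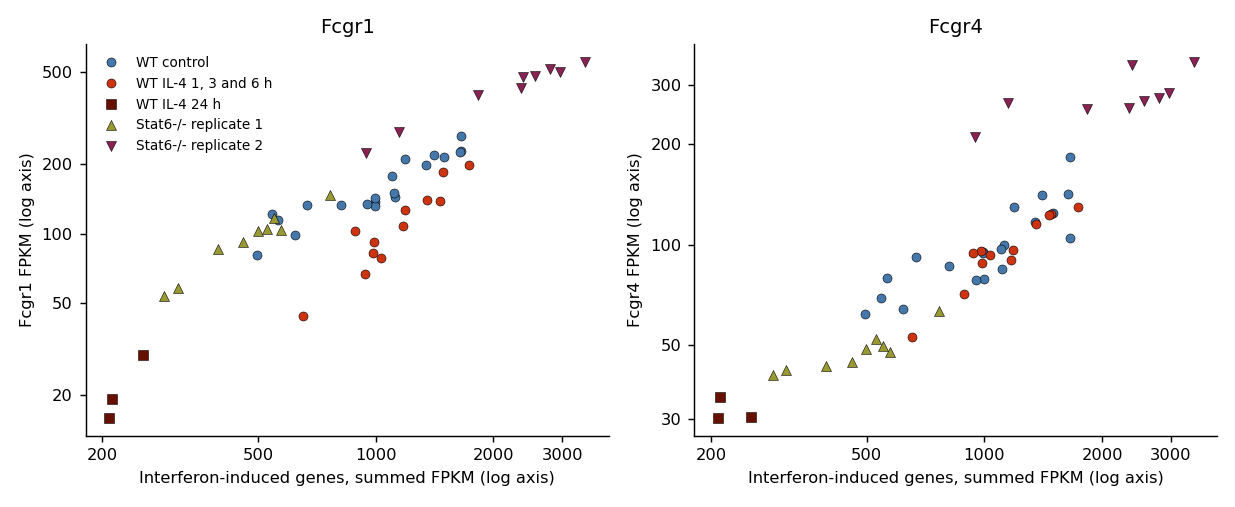
FPKM of Fcgr1 (left) and Fcgr4 (right) against the summed FPKM of 16 interferon-induced genes, 1 point per sample on log axes, by genotype, treatment and Stat6-/- replicate. Stat6-/- replicate 2 (946 to 3431 on the x axis) stands above replicate 1 (287 to 765), and the WT 24 h IL-4 samples are at the lower left.

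WT replicates also differed by number. The WT 24 h IL-4 group holds no replicate 1, so replicate 2 alone stands for replicates 1 and 2 there in these counts. Replicates 1 and 2 stood above replicates 3 and 4 in all 9 WT groups for Fcgr1 and in 6 of 9 for Fcgr4, and below them in all 9 for Fcgr2b and in 8 of 9 for Fcgr3. The interferon-induced list was higher in replicates 1 and 2 in 8 of 9 groups. The IL-4 effect on Fcgr2b had the same direction in every replicate number, at 3.23 to 3.75 times the same-numbered control at 1 h, 8.71 to 11.1 times at 3 h and 8.41 to 12.7 times at 6 h.

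Time in culture without IL-4 was checked in WT by setting the 24 h control against 0 h. Fcgr3 rose by 0.69 ± 0.15 (adjusted p = 0.00137), from 352, 385, 496 and 547 FPKM to 681, 571, 791 and 815 FPKM, and was the only member of 5 to pass, against 17.2% of loci. Fcgr1 stood at 228, 215, 144 and 149 FPKM at 0 h and at 133, 121, 114 and 81.2 FPKM at 24 h, without overlap. Its change of -0.70 ± 0.58 did not pass over all samples (adjusted p = 0.421) and passed in the WT samples alone (adjusted p = 0.0461), where 2 members passed against 31.3% of loci. Fcgr2b (0.36 ± 0.23, adjusted p = 0.283), Fcgr4 (-0.45 ± 0.65) and Fcer1g (0.08 ± 0.16) did not pass. The 24 h control of Fcgr3 was thus 1.61 times its level at 0 h, and the 24 h IL-4 samples stood beside that control.

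The genes that carry the signal of the activating receptors changed in both directions. Of 21 genes of ITAM signalling, 3 rose and 0 fell at 1 h of IL-4 in WT, 7 rose and 6 fell by 3 h, 6 rose and 8 fell by 6 h, and 2 rose against 12 that fell at 24 h. The median log2 change was -0.02, -0.09, -0.18 and -0.46, against -0.02, 0.01, -0.00 and -0.07 over all loci tested, of which 9.39%, 28.9%, 41.2% and 55.0% passed in either direction. Among the Src family kinases that phosphorylate ITAMs, Lyn fell by 0.82 at 3 h, 1.05 at 6 h and 0.77 at 24 h. Fgr rose by 0.88 at 3 h and 0.80 at 6 h and fell by 0.97 at 24 h. Syk, the kinase that docks on the phosphorylated ITAM, fell by 0.77, 0.64 and 0.51 at 3, 6 and 24 h. The adaptor Lcp2 rose by 1.03 at 3 h and fell by 0.56 at 24 h, the kinase Prkcd rose by 1.15 at 6 h and 1.14 at 24 h, and Cbl, a ubiquitin ligase that limits such signals, rose by 1.40 at 1 h and by 1.16 at 6 h.

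Of 9 phosphatases and adaptors of inhibitory signalling, 1 rose and 1 fell at 1 h, 3 rose and 3 fell at 3 h, 2 rose and 5 fell at 6 h, and 2 rose and 4 fell at 24 h, with a median log2 change of -0.34 at 6 h against -0.00 over all loci, of which 41.2% passed. Inpp5d, whose product binds the ITIM of Fcgr2b, fell by 0.28 ± 0.06 at 3 h, 0.47 ± 0.06 at 6 h and 0.67 ± 0.06 at 24 h. Its relative Inppl1 fell by 1.03 at 3 h and 1.09 at 6 h and stood at -0.02 at 24 h. The tyrosine phosphatase Ptpn6 fell by 0.84 at 24 h, and its earlier differences of -0.25 to -0.35 did not pass in the fit of all samples. Its WT IL-4 samples still lay below all their controls at these times. At 1, 3 and 6 h they reached at most 224, 195 and 202 FPKM, against at least 232, 223 and 229 FPKM in the controls. Of the Dok adaptors, which dampen kinase signals, Dok2 rose by 1.22, 1.66 and 1.66 at 3, 6 and 24 h, while Dok3 fell by 0.94 at 6 h and 1.11 at 24 h.

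**Figure D5:**
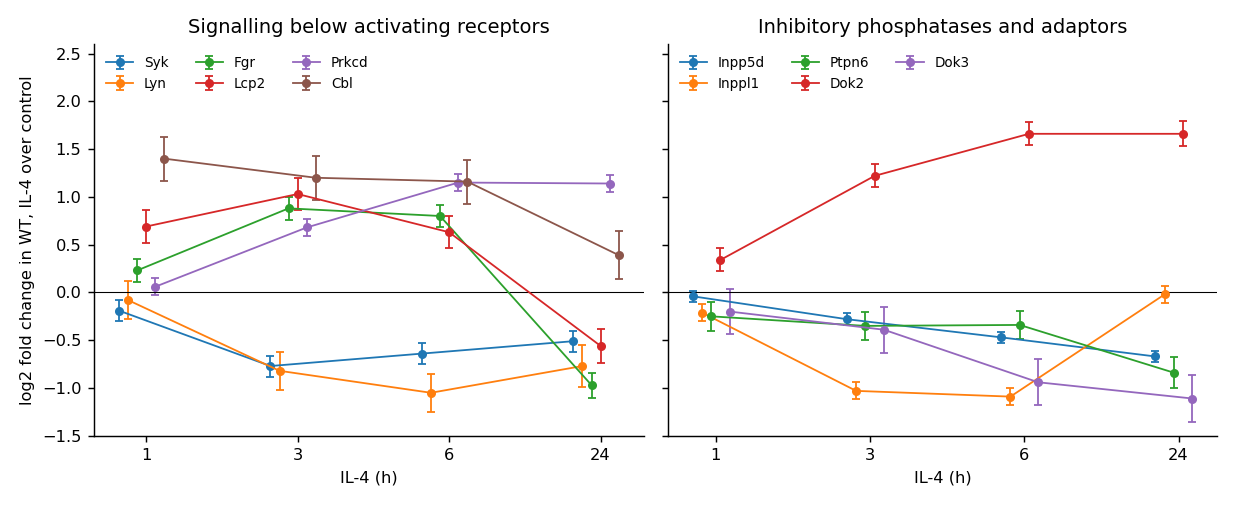
log2 fold change in WT, IL-4 over the control of the same time, with its SE, for genes below the activating receptors (left) and for inhibitory phosphatases and adaptors (right). Syk and Lyn lie below 0 and Prkcd and Cbl above it; on the right, Dok2 rises to 1.66 while Inpp5d falls to -0.67 at 24 h.

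Of 11 other ITIM receptors of myeloid cells, 0 passed at 1 h, 1 rose and 0 fell at 3 h, and 1 rose and 4 fell at 6 h and again at 24 h. Over all loci 9.39%, 28.9%, 41.2% and 55.0% passed at these times. The collagen receptor Lair1 was the 1 that rose at 3 h, by 1.15 ± 0.32, from 59.5 ± 10.3 to 132 ± 12.8 FPKM (SD, n = 4), and its 6 h change was 0.81 ± 0.32. Clec12a fell by 1.44 at 6 h and 1.96 at 24 h, and at 24 h Siglece fell by 2.63 and Lilrb3 by 1.22. Median changes of this list were -0.08, -0.26, -0.43 and -0.43 at 1, 3, 6 and 24 h, against -0.02, 0.01, -0.00 and -0.07 over all loci tested.

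Other receptors that use the FcR gamma chain or the related adaptor Tyrobp included the only gene of these lists whose highest rise over the 4 times exceeded that of Fcgr2b. Tarm1, a receptor that pairs with the gamma chain, rose by 2.44, 3.99, 4.68 and 2.81 at 1, 3, 6 and 24 h, and stood at 63.0 ± 7.49 FPKM at 6 h of IL-4 against 1.51 ± 0.45 FPKM in the control. Cd300lb rose by up to 1.10 at 6 h. The lectin receptors Clec4e, Clec4d and Clec4n fell by 3.00, 1.67 and 2.93 at 24 h, and Sirpb1a and Pilrb1 by 2.15 and 1.97. Of the 11 genes tested, 2 rose and 0 fell at 1 h, 3 rose and 2 fell at 3 h, 2 rose and 4 fell at 6 h, and 3 rose and 5 fell at 24 h. Their median log2 change was -0.04, -0.20, -0.31 and -0.21, where the medians over all loci were -0.02, 0.01, -0.00 and -0.07 and 9.39%, 28.9%, 41.2% and 55.0% of loci passed. Tyrobp itself changed by -0.20 to -0.26, and passed at 6 h (adjusted p = 0.0363).

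Of 13 other immunoglobulin receptors and carriers, 5 were tested, since the rest did not reach 1 FPKM in any sample. The neonatal Fc receptor Fcgrt, which recycles IgG, fell by 1.42 ± 0.22 at 24 h (adjusted p = 8.93e-07), and its 6 h difference was 0.47 ± 0.20 (adjusted p = 0.0574). Trim21, a cytosolic antibody receptor, fell by 0.74 ± 0.23 at 24 h (adjusted p = 0.00617). Fcrl1 fell at every time, by 0.22, 1.17, 2.36 and 2.76, from 18.7 ± 0.64 to 1.92 ± 0.43 FPKM at 24 h. Fcrls rose by 1.02 ± 0.26 at 6 h.

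Other genes near the receptors were tested as well. Of 19 tested loci within 200 kb of a member on chromosome 1, the largest rise was 0.75 at 6 h (Pfdn2), against 3.39 for Fcgr2b. At 6 h, 6 rose and 3 fell, and at 24 h 3 rose and 8 fell, where 41.2% and 55.0% of all loci passed. Those that changed at least 2-fold were Pcp4l1, which fell by 1.73 at 6 h and was also lower at 24 h, and Pvrl4 at 24 h. Of 11 tested loci around Fcgr1 on chromosome 3, 4 rose and 2 fell at 24 h. The lowest value was that of Mtmr11 from 3 h on, at -0.85, -1.24 and -0.95 at 3, 6 and 24 h, beside -0.52, -1.16 and -2.34 for Fcgr1.

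Over the 18 group means, the genes most like Fcgr2b among 10389 loci with a mean of at least 1 FPKM were Cdc42se2 (Pearson r = 0.985), Cltc (0.978) and Sys1 (0.971). Those most like Fcgr1 were Ifitm6 (0.982), Plod1 (0.977) and Pira6 (0.975). For Fcgr4 they were LOC100038947 (0.965), Ms4a6b (0.963) and Aoah (0.962), for Fcgr3 Pecam1 (0.928), Rnf130 (0.901) and Tomm34 (0.888), and for Fcer1g Grina (0.937), Dynlt1b (0.933) and Dynlt1c (0.928). Between the members, r was 0.95 for Fcgr1 with Fcgr4, 0.60 for Fcgr2b with Fcgr3 and -0.40 for Fcgr1 with Fcgr2b. The points are group means on the log2(FPKM + 1) scale that share libraries and time courses, so these values describe likeness of pattern only.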

How the data were processed

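Gene-level FPKM tables, 1 per sample, were made by the authors and deposited without read counts, so the depth of each library is unknown. The submitters' processing notes name TopHat2 2.0.7, Cufflinks 2.0.2 and mm10. The gene annotation is not given in the sources used here. Libraries were poly-A selected from 1 µg of RNA. Estimates below 1e-06 FPKM were set to 0. Loci that reached 1 FPKM in at least 1 sample (11146) were tested in limma 3.58.1 on log2(FPKM + 1), with 1 mean per group, all 53 samples and Benjamini-Hochberg adjustment. Passing means an adjusted p under 0.05. Fold changes are on that scale and understate changes of low genes. The fit was first tested on simulated data. Named genes were the members, Stat6, set genes of the listed pathways and list genes that passed with at least 2-fold change in WT. For likeness, the 3 loci with the highest r were named. The members and lists were chosen with earlier results of these data known. Replicate numbers were taken as pairs in WT at 3 h (r of same-numbered deviations 0.316 to 0.479) and 6 h (0.105 to 0.561), from the data alone. At 6 h, replicate 2 had a higher r with a control of another number (0.283) than with its own (0.235). The study describes WT samples as individual animals, and neither it nor the labels say whether a replicate number marks 1 animal. WT 24 h IL-4 replicate 1 is not analysed here. Values of some list genes are not reported here.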

Additional observations from a re-analysis of the deposited data

Results flagged for a closer look

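The IL-4 effect on Fcgr2b differed between WT and Stat6-/- BMDMs by the interaction test, by 1.79 at 1 h, 3.21 at 3 h and 3.28 at 6 h on the log2 scale. In the group of WT samples given IL-4 for 6 h, Fcgr4 of replicate 4 stood at 52.9 FPKM, far below the other samples at 93.2 to 96.0 FPKM. Among 48 sets of 4 samples examined in this way (5 members and the inhibitory share), 1 sample stood apart, and chance marks about 5% of such sets.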

How the results depend on the processing

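The rises of Fcgr2b at 1, 3 and 6 h and of Fcgr3 at 6 h in WT kept their direction and passed under every alternative run: a pseudocount of 0.1, other filters, quantile normalization, fits of fewer samples, the replicate block, Tukey adjustment and leaving out samples. With Tukey adjustment, 1 member passed at 3 h (Fcgr3 lost, adjusted p = 0.0535) and 0 at 24 h in WT (Fcgr1, adjusted p = 0.0721, and Fcgr2b, adjusted p = 0.0596). With the replicate block, 2 members passed at 1 h and 4 at 24 h in WT. It gave 2, 3 and 3 members for the difference between genotypes at 3, 6 and 24 h. For the WT control at 24 h against 0 h it gave 4. The share of all loci passing with the block was computed only for WT at 3 and 6 h (41.1% and 55.2%). No such share was computed for Tukey adjustment, quantile normalization, fits of only the samples compared or fits with samples left out. The member counts of these fits therefore cannot be set against such a share. The block changed no other count by over 1.5 times. Replicate numbers at 1 h, at 24 h and in Stat6-/- were not taken as pairs. Their same-numbered deviations had r of 0.096 to 0.234 in WT at 24 h. In Stat6-/- r was 0.791 to 0.9, where the 2 deviations of a group mirror each other. Quantile normalization gave 2 members for the difference at 6 h (Fcgr2b and Fcgr3). For the WT control at 24 h, 2 members passed in fits of only the samples compared and, chosen after seeing the data, of WT alone. Leaving out samples moved the count for the difference between genotypes at 1, 6 and 24 h, and for genotype at 0 h and over all controls. Fits without a Stat6-/- sample leave 1 in its group, so these counts are not given. Over all controls, Fcgr1 ranged from -0.73 to 1.33 and Fcgr4 from -0.97 to 1.37. For the difference at 1 h, the count fell without Stat6-/- 1 h IL-4 replicate 1 or control replicate 2. With Fcgr3 and Fcgr2b alone, the inhibitory share differed by 19 percentage points at 1 h and 34.8 at 3 h. Counts for gene lists moved by over 1.5 times in 44 cases and by less in 124. The cause of these changes was not tested. The depth is unknown, and 2 Stat6-/- samples a group limit every comparison with them.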
